A study of Drosophila melanogaster with 3 samples.

Results

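Genes that pattern the dorsoventral axis of the Drosophila embryo, together with the genes of the Dpp signalling pathway, were examined for binding of Lilliputian (lilli). They are 30 named genes, named by their known roles rather than by a threshold on these data, among 13945 protein-coding genes on 6 chromosome arms. The genes were nevertheless chosen with earlier results of these data known. Lilli is the fly AF4/FMR2 protein, a subunit of the super elongation complex that acts on paused RNA polymerase II. It was mapped by chromatin immunoprecipitation and sequencing in 1 group of 3 biological replicates. Each was chromatin of whole embryos of both sexes, 0 to 24 h old, from a transgenic line that stably carries lilli with GFP at its C terminus, precipitated with an antibody to GFP. Because the chromatin came from entire embryos of every age in that span, binding in few cells or at a short stage and weak binding in many cells cannot be told apart. No embryos without the tag and no second genotype were analysed here, so there is no comparison of conditions and no test. The replicates are compared with each other, and the 30 genes with all protein-coding genes.

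The dorsoventral axis is set by a ventral-to-dorsal nuclear gradient of the NF-kappaB factor Dorsal. High Dorsal activates the mesoderm genes twi and sna, lower levels activate genes of the neurogenic ectoderm such as rho, vnd, sog and brk, and Dorsal represses zen, dpp and tld, which are thereby left to dorsal cells. There Dpp and Scw, ligands of the bone morphogenetic protein (BMP) family, are moved and released by Sog, Tsg and the protease Tld, and their peak of activity specifies the amnioserosa, an extraembryonic tissue. The signal passes through the type I receptors Tkv and Sax and the type II receptor Put to the Smads Mad and Med, is damped by the inhibitory Smad Dad, and is opposed at target genes by the repressor Brk.

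The deposited lists on the dm6 genome hold 30000 ranked peaks per replicate and for the 3 replicates pooled, and 6970 optimal peaks that passed the authors' reproducibility threshold. The optimal peaks are the 6970 strongest pooled peaks, so a pooled rank beyond 6970 lies outside the optimal list. The pooled list is labelled as peaks and background, the input for the reproducibility threshold. Entries beyond rank 6970 may therefore be background and are not read here as weak binding. Rank 1 is the highest signal in a list. The signal is the authors' value and was used only within a list. The lists hold no reads, so the depth of each replicate is unknown. A promoter peak has its summit within 500 bp of an annotated transcription start site (TSS) of the gene. A locus is the gene body with up to 10 kb on either side, ending at the next protein-coding gene. A distal peak lies over 500 bp from every annotated TSS of any gene.

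Optimal promoter peaks were present at a smaller share of the 30 genes than of all genes, a difference that was not tested. The optimal peaks in the 30 loci lay mostly in introns and flanks. An optimal promoter peak was present at 6 genes, tin, htl, rho, pyr, tkv and Dad, or 20%, against 31.3% of all protein-coding genes. An optimal peak anywhere in the locus was present at 15 genes (50%), against 40.2%, and one inside the gene body at 10 genes (33.3%), against 16.8%. A distal optimal peak was present at 11 genes (36.7%), against 13.1%. Of these 11 genes, 9 had no optimal promoter peak, and tkv and Dad had both. The loci held 39 optimal peaks, of which 7 were promoter peaks, 21 were in introns and 11 in flanks, with 0 in coding exons or UTRs over 500 bp from a TSS. Thus 82.1% were distal, against 44.5% of all optimal peaks.

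**Figure D1:**
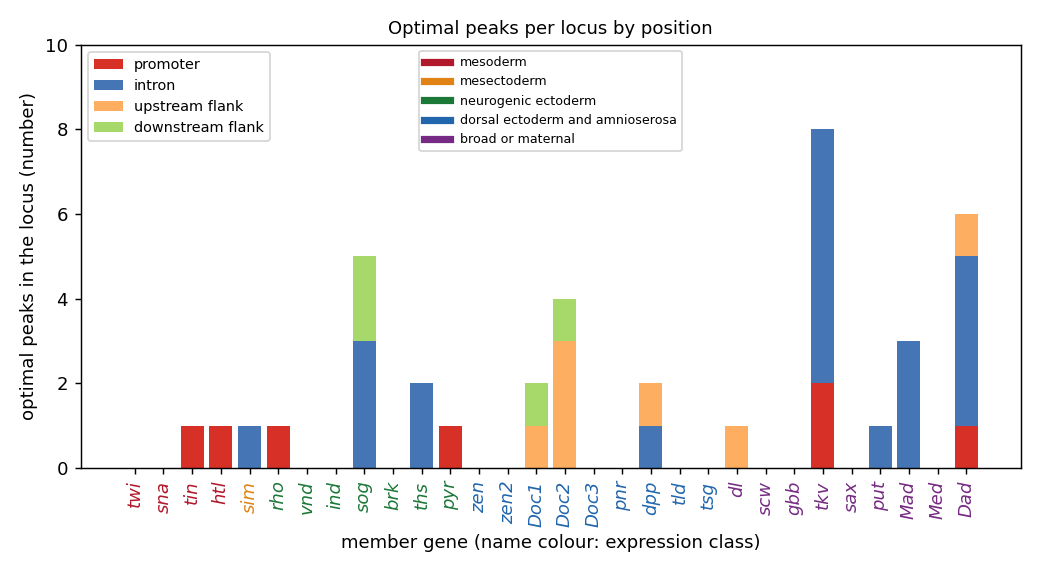
Number of optimal peaks in the locus of each of the 30 genes, stacked by position relative to that gene; the colour of a name gives its expression class. tkv has 8 peaks, Dad 6, sog 5 and Doc2 4, and 15 genes have 0.

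Locus length goes with these counts. The median locus of the 30 genes was 15083 bp, against 3989 bp for all protein-coding genes. Among the 8 genes with a locus under 5 kb, 0 had a distal optimal peak, against 1.94% of all genes of that size. Among 12 genes with a locus of 5 to 20 kb, 5 did (41.7%), against 20.3%. Among 10 genes with a locus over 20 kb, 6 did (60%), against 47.4%. In the same length classes, any optimal locus peak was present at 0 of 8, 7 of 12 and 8 of 10, against 32.5%, 46.7% and 59.8%. Per length of locus, there were 0.532 distal peaks per 10 kb in the 30 loci and 0.250 over the loci of all protein-coding genes. The genes tkv, Dad and sog held 19 of the 39 peaks, and without them the density was 0.336 per 10 kb, with 16 distal peaks. Promoter peaks did not rise with locus length in all genes (31.1%, 32.1% and 30.5% in the 3 length classes), and were 0 of 8, 2 of 12 and 4 of 10 among the 30 genes.

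In the mesoderm, tin and htl carried the strongest promoter peaks of all 30 genes. The homeodomain factor Tin, which specifies the heart and the dorsal mesoderm, had its promoter summit 176 bp upstream of the TSS, in a peak on 3R from 21378621 to 21378908 with rank 1363 and signal 383. It ranked 815, 1477 and 2293 in replicates 1, 2 and 3. The fibroblast growth factor (FGF) receptor gene htl had a summit 389 bp upstream of a TSS (3R, 18049537 to 18049972, rank 2962, signal 229), with ranks 1564, 4138 and 4045. These were the only members whose promoter was among the 6970 strongest peaks of every replicate, 2 of 30 genes (6.67%), against 24.6% of all protein-coding genes. Of the 2 summits, that of tin lies before the annotated gene, and that of htl lies inside the annotated gene, upstream of an internal start site. They are shown because they are the reproducible promoter peaks, and capitals mark any of the 14 sequence words searched, here CATATG, an E-box of the kind that Twist binds:
tin, chr3R:21378751-21378851, plus strand: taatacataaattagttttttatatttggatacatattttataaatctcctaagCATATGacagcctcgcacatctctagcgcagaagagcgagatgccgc
htl, chr3R:18049705-18049805, plus strand: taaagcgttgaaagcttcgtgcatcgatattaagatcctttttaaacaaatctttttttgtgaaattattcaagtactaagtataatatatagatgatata

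The other mesoderm genes, twi and sna, had no optimal peak in their loci. The basic helix-loop-helix factor Twi and the zinc-finger repressor Sna are the first zygotic mesoderm determinants. At sna the promoter held a lower-ranked pooled peak, rank 12914, and peaks of rank 21692, 14332 and 15619 in the replicates. At twi no pooled peak lay at a promoter, and a promoter peak was listed in replicate 1 alone, at rank 19995. The annotation gives twi a span of 62952 bp with 3 TSSs, and 8 pooled peaks lay in its locus of 70139 bp, the strongest at rank 9263. The midline regulator gene sim, the 1 mesectoderm gene here, had no pooled promoter peak and 1 optimal peak in an intron, 4176 bp from its nearest TSS, with rank 4555 and replicate ranks 4597, 4402 and 5856.

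**Figure D2:**
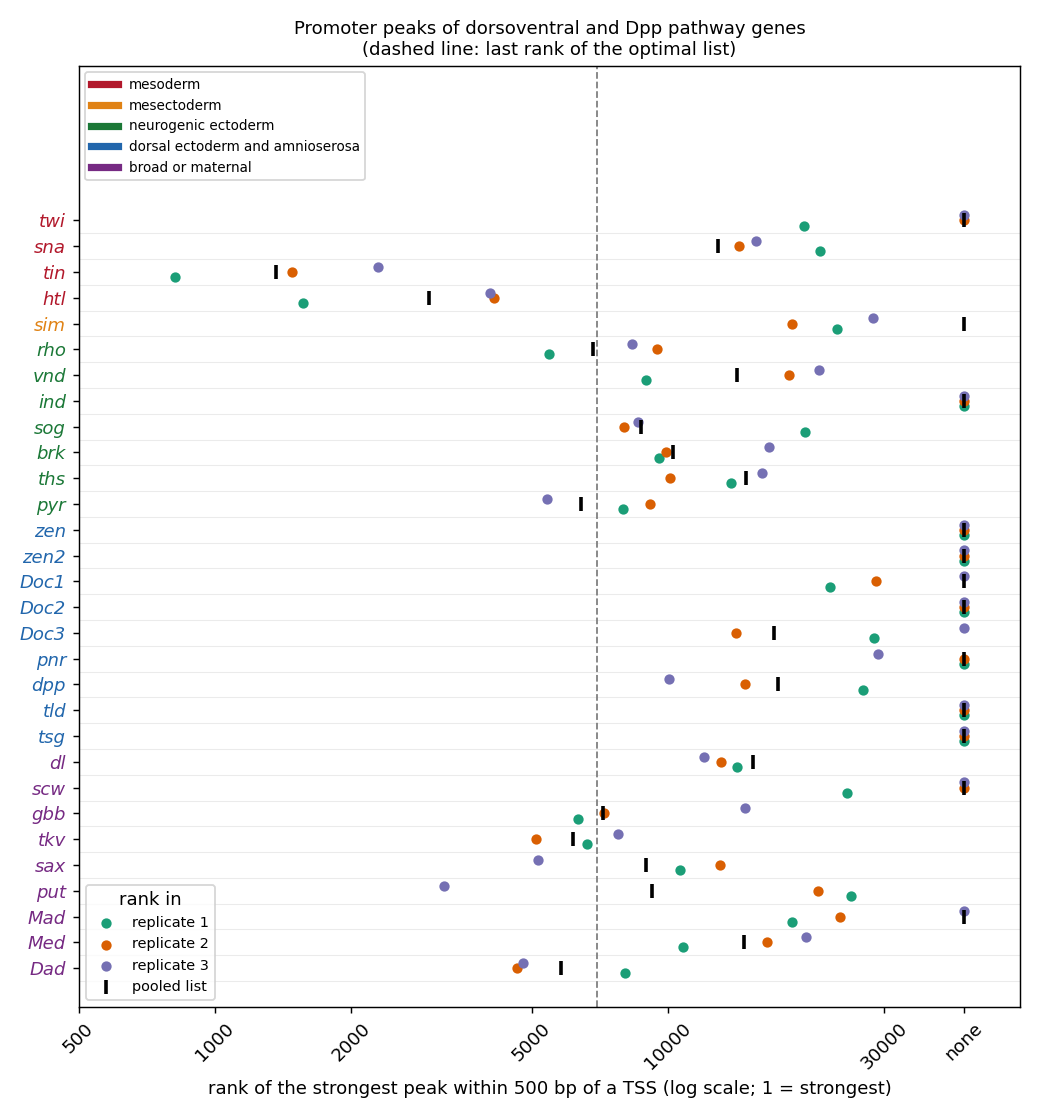
Rank of the strongest peak within 500 bp of any TSS of each gene in the 3 replicates (dots) and the pooled list (bars), on a log axis where 1 is the strongest and "none" means that no peak was listed; the dashed line is rank 6970, the end of the optimal list. All 3 replicates lie left of the line at tin and htl only, and at put replicate 3 lies apart from replicates 1 and 2.

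Among the Dpp receptors, tkv had the most peaks, and its promoter peaks were weak. The locus of tkv, a type I receptor gene with 4 TSSs on 2L, held 8 optimal peaks, of which 2 were at promoters and 6 in introns. The promoter peaks ranked 6177 and 6264, near the end of the optimal list, with summits 57 bp upstream and 12 bp downstream of a TSS. The first ranked 7017, 5122 and 10652 in replicates 1, 2 and 3, and the second 6612, 5854 and 7750, so neither was among the 6970 strongest of every replicate. The first also lies within 500 bp of a TSS of the gene CR14033. The 3 strongest peaks of the locus were intronic, at ranks 3010, 4350 and 4769. The peak of rank 3010 lay 11573 bp downstream of the nearest of the 4 TSSs (5225571 to 5226006) and was steady, at ranks 3098, 2942 and 3077. At the type II receptor gene put, no promoter peak was optimal, with a pooled rank of 9230. Its replicates disagreed, with promoter ranks of 25289 and 21434 in replicates 1 and 2 and of 3201 in replicate 3. An intronic peak of put, 1467 bp from the TSS, was optimal (rank 3449, with 2784, 3086 and 7193 in the replicates). The other type I receptor gene, sax, had no optimal peak in its locus. Its promoter ranked 8963 in the pooled list and 10611, 13029 and 5171 in the replicates.

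The Smad genes held the strongest peaks of the set. In Dad, which encodes the inhibitory Smad and is itself induced by Dpp signalling, an intronic peak 10271 bp from the nearest TSS (3R, 17064936 to 17065353) had rank 242 and signal 922. It ranked 217, 268 and 280 in replicates 1, 2 and 3, and was the 1 peak of the 39 among the 697 strongest. A summit 206 bp further on, in an overlapping peak, ranked 6702 and was far less steady, at 3536, 8230 and 22212. The promoter peak of Dad ranked 5796 with a summit 90 bp downstream of a TSS. It had a matching summit within 100 bp in replicates 2 (4643) and 3 (4775) and none in replicate 1, where another peak within 500 bp of a TSS ranked 8021. Mad, the receptor-regulated Smad gene, had no pooled promoter peak and 3 optimal intronic peaks. The strongest, 678 bp upstream of a TSS and so just outside the promoter window (2L, 3153269 to 3153563), had rank 800 and signal 522, with ranks 700, 1112 and 677. The other 2 Mad summits, at ranks 5645 and 6051, varied: the first had no match within 100 bp in replicate 1, and the second ranked 4870, 17611 and 13975. Med, the common Smad gene, had no optimal peak, with a pooled promoter rank of 14687 and promoter ranks of 10792, 16528 and 20119 in the replicates.

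The ligand genes of the pathway lacked optimal promoter peaks. In dpp, the BMP2/4 ligand gene, 2 optimal peaks lay outside promoters. One was in an intron 5280 bp downstream of a TSS (2L, 2433525 to 2433735, rank 1865, signal 316) and the other 1730 bp upstream (2426424 to 2426859, rank 3084, signal 222). The intronic peak ranked 1984, 2128 and 1650 in the replicates and the upstream peak 4127, 3205 and 2557, so both were recovered in every replicate. The promoters of dpp, with 4 TSSs, held 4 pooled peaks, the strongest at rank 17492. For scw, the other ligand of the early embryo, no pooled peak lay at the promoter or in the locus. For gbb, a BMP ligand acting later, the promoter had pooled rank 7176, just beyond the optimal list, and ranks of 6333, 7232 and 14782. Windows centred on the summits of the strongest Dad, Mad and dpp peaks are given because these are the strongest distal peaks of the 2 Smad genes and the ligand gene with optimal peaks, and the first tkv promoter peak because it carries TATCGATA, the word of the DNA replication-related element factor:
Dad, chr3R:17065118-17065218, plus strand: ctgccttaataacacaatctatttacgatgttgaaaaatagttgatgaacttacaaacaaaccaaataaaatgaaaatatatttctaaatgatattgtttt
Mad, chr2L:3153381-3153481, plus strand: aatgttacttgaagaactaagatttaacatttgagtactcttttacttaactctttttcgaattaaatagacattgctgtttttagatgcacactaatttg
dpp, chr2L:2433602-2433702, plus strand: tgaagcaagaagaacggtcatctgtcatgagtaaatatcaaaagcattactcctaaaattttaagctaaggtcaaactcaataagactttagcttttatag
tkv, chr2L:5242627-5242727, plus strand: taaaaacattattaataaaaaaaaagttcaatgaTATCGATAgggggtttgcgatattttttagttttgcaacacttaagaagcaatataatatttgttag

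These stretches hold 22.8% (Dad), 26.7% (Mad), 31.7% (dpp) and 23.8% (tkv) G and C. None of the 14 words lies in the Dad, Mad and dpp windows. The extracellular modulators divided. sog, the Chordin homologue that carries Dpp dorsally, held 5 distal peaks, while the BMP-binding tsg and the Sog protease tld had no pooled peak in their short loci of 2353 and 4723 bp. At tld, replicates 1 and 2 each listed a peak just past the 3' end of the gene (3R, summits 24753682 and 24753683). These ranked 4526 and 3908. Replicate 3 had no peak in the locus among its 6970 strongest, and the pooled list held none there. Of the 6970 strongest peaks, 45, 63 and 88 in replicates 1, 2 and 3 had no pooled summit within 1000 bp, so such peaks were rare.

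In the neurogenic ectoderm, sog had the most optimal peaks, none at a promoter. Of its 5 optimal peaks, 3 were intronic and 2 lay downstream of the gene. The 3 strongest had ranks 1713, 2122 and 3235, at 3442, 7054 and 26639 bp from the nearest TSS. Their replicate ranks were 2319, 1832 and 1525 for the first, 3617, 1946 and 1560 for the second, and 4033, 3121 and 3560 for the third, so each was recovered in all 3 replicates. The first lies in an intron on X from 15622915 to 15623150. At the promoters of sog the best pooled rank was 8703. For the protease gene rho, which releases Egfr ligands, a promoter peak 60 bp downstream of the TSS (3L, 1463653 to 1464088) ranked 6822, and 5459, 9447 and 8336 in the replicates. It lies inside the overlapping gene Ptp61F as well. The homeodomain genes vnd and ind, which set the ventral and intermediate columns of the neuroectoderm, had no optimal peak, with a promoter pooled rank of 14233 at vnd and no pooled peak in the 1126-bp locus of ind. The repressor gene brk had no optimal peak by these limits, and its promoter ranked 10271 in the pooled list.

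None of the 9 genes classed as dorsal ectoderm and amnioserosa, which leave out Dad, had an optimal promoter peak. The T-box genes of the Doc cluster were bound around rather than at their promoters. Doc1, Doc2 and Doc3, which are expressed together in the amnioserosa, form a cluster on 3L, with the protein-coding gene CG5194 between Doc3 and Doc2. Between Doc2 and Doc1, which are transcribed away from each other, 22.1 kb held 4 optimal peaks, all distal, with ranks 1237, 1883, 5115 and 5445. The strongest lay 6677 bp upstream of Doc2 (9025761 to 9026034, signal 406) and ranked 1572, 1197 and 1111 in the replicates. The second lay 4534 bp upstream of Doc2 and ranked 1908, 2413 and 1568. A further peak lay in the 5.44 kb between Doc3 and Doc2 (rank 3788, with 3426, 4085 and 4558), and another 3598 bp downstream of a Doc1 TSS, beyond the end of the gene (rank 4044, with 3751, 7072 and 3448). No pooled peak lay at the promoters of Doc1 and Doc2, and that of Doc3 had rank 17145. The homeodomain gene zen and its paralogue zen2 had no pooled promoter peak, and the 8.73 kb between them held 0 optimal and 2 pooled peaks. The GATA factor gene pnr had no optimal peak and 5 pooled peaks, the strongest at rank 15907. The windows at the strongest sog and Doc2 peaks are given because these genes held the most optimal peaks in the neurogenic and in the dorsal ectoderm and amnioserosa classes, and hold none of the 14 words:
sog, chrX:15623048-15623148, plus strand: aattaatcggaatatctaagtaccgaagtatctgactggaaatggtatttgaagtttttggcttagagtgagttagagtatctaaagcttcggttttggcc
Doc2, chr3L:9025873-9025973, plus strand: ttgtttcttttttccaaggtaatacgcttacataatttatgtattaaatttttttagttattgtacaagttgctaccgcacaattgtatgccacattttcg

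The maternal gene dl, which encodes Dorsal, had an optimal peak 649 bp upstream of a TSS, outside the promoter window. It had rank 2499 (2L, 17450795 to 17451230, signal 258) and replicate ranks 2197, 2337 and 2718. Its promoters held 2 pooled peaks, the stronger at rank 15373.

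The FGF ligand genes ths and pyr signal from ectoderm to the receptor Htl in the mesoderm. They lie on the same arm, and differed in where their peaks lay. In ths 2 intronic peaks were optimal. One, 1465 bp from a TSS, had rank 1352 and signal 384 and was steady, at ranks 1508, 1757 and 966. The other, 19229 bp from a TSS, had rank 2806 and ranks of 3257 and 2658 in replicates 1 and 3, with no summit within 100 bp in replicate 2. In pyr the 1 optimal peak was at the promoter, 73 bp upstream of the TSS, at rank 6434, and ranked 7970, 9129 and 5405 in the replicates.

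**Figure D3:**
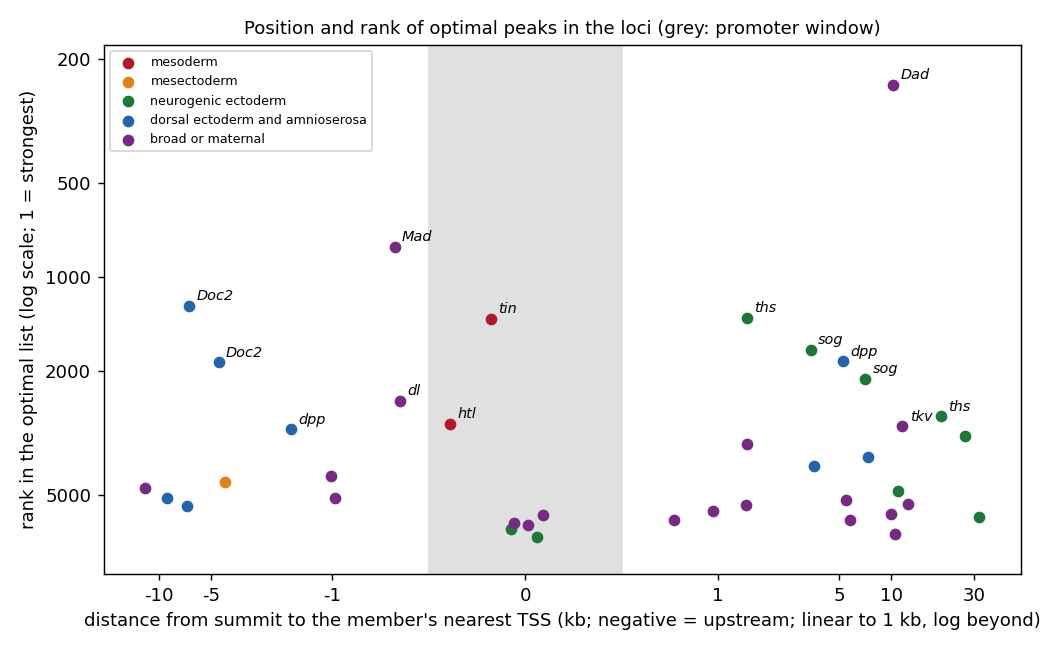
Distance of each of the 39 summits from the nearest TSS of its gene (horizontal, linear to 1 kb and log beyond, negative upstream) against rank in the optimal list (vertical, log, strongest at the top), coloured by expression class. The grey band is the promoter window; Dad (rank 242) and Mad (rank 800) lead outside it, and within it tin (1363) and htl (2962) lie above the other 5 promoter peaks.

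Grouped by where the genes are expressed in the early embryo, an assignment from textbook knowledge, the classes held few genes each. The classes were set with earlier results of these data known. An optimal promoter peak was present at 2 of 4 mesoderm genes, 2 of 7 genes of the neurogenic ectoderm, 0 of 9 genes of the dorsal ectoderm and amnioserosa, and 2 of 9 maternal or broadly expressed genes, beside 31.3% of all protein-coding genes. In replicates 1, 2 and 3 the same counts by the 6970 strongest peaks were 2, 2 and 2 in the mesoderm, 1, 0 and 1 in the neurogenic ectoderm, 0, 0 and 0 in the dorsal ectoderm and amnioserosa, and 2, 2 and 3 in the broad class. Distal peaks ran in another order. They were present at 0 of 4 mesoderm, 2 of 7 neurogenic, 3 of 9 dorsal and amnioserosa and 5 of 9 broad or maternal genes, beside 13.1% of all genes. Per length, the loci of broad or maternal genes held 1.30 distal peaks per 10 kb, those of dorsal and amnioserosa genes 0.613, those of neurogenic genes 0.368 and those of mesoderm genes 0, beside 0.250 over all loci. The broad or maternal value rests on few genes: of 16 distal peaks tkv held 6, Dad 5 and Mad 3, overlapping pairs included. There scw, gbb, sax and Med held 0. Dad was counted in the broad or maternal class, although it is induced by Dpp signalling. It is 1 of the 2 promoter genes there and holds 5 of the 16 distal peaks. Counted with the dorsal genes instead, it would give that class a promoter peak. The differences between classes were not tested, and most counts depended on the peaks kept. Optimal peaks were also required to be among the strongest of both replicates of a given pair, which can only lower a count. The promoter count of the neurogenic ectoderm was then 0 and that of the broad class 0 to 1, while the mesoderm count was 2. With the 3485 strongest peaks, the neurogenic and broad counts were 0. The neurogenic locus count went from 4 to 2 in each of these settings. With a promoter window of 250 bp, which leaves out htl, the mesoderm count was 1.

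**Figure D4:**
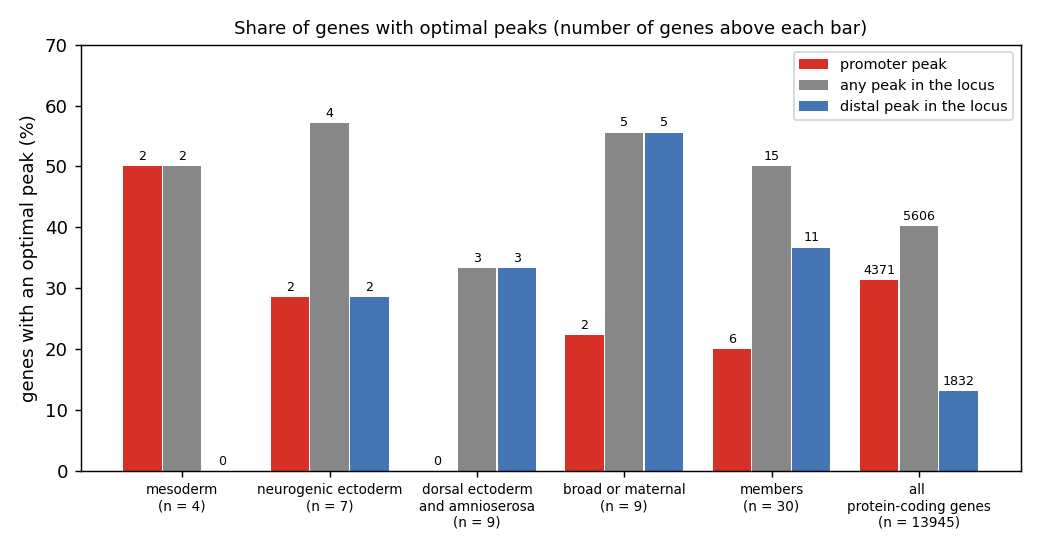
Share of genes with an optimal peak at a promoter (red), anywhere in the locus (grey) and at a distal position (blue), with the number of genes above each bar; sim, the 1 mesectoderm gene, is counted under the members but has no bar of its own. With Dad counted as broad or maternal, no dorsal ectoderm and amnioserosa gene has a promoter peak, and no mesoderm gene has a distal peak.

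The 14 members that encode transcription factors of the patterning network (twi, sna, tin, sim, vnd, ind, brk, zen, zen2, Doc1, Doc2, Doc3, pnr and dl) and the 16 that encode signalling components, Smads included, were counted apart. Of the former 1 (tin) had an optimal promoter peak, or 7.14%, and of the latter 5, or 31.3%, the same share as of all protein-coding genes (31.3%). Optimal peaks in the locus were present at 5 of 14 and 10 of 16 genes, against 40.2% of all genes. This division was made after the values were seen.

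Promoter peaks of the 30 genes varied between replicates. Among the 6970 strongest peaks of a replicate, 5 ± 1 of the 30 promoters were present (SD, n = 3), against 30.8% ± 0.825 of all protein-coding genes. In replicate 1 these were tin, htl, rho, gbb and tkv, against 30.5% of all genes. In replicate 2 they were tin, htl, tkv and Dad, against 31.7%. In replicate 3 they were tin, htl, pyr, sax, put and Dad, against 30.1%. So 5 members were present in exactly 1 replicate, 2 in exactly 2 and 2 in every replicate (6.67%, against 24.6% of all genes). The shares of all genes present in exactly 1 or exactly 2 replicates are not given here. The optimal list rests on all 3 replicates, so no replicate can be left out of it. Optimal promoter peaks were also required to be among the strongest of a given pair of replicates, which can only lower the count. With replicates 2 and 3, 1 and 3, and 1 and 2, this left 3, 2 and 3 genes. The share of all genes under this rule is not given here. By the locus, 16, 14 and 15 of the 30 genes had one of the strongest peaks in replicates 1, 2 and 3, against 39.2%, 40.6% and 39.7% of all genes.

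**Figure D5:**
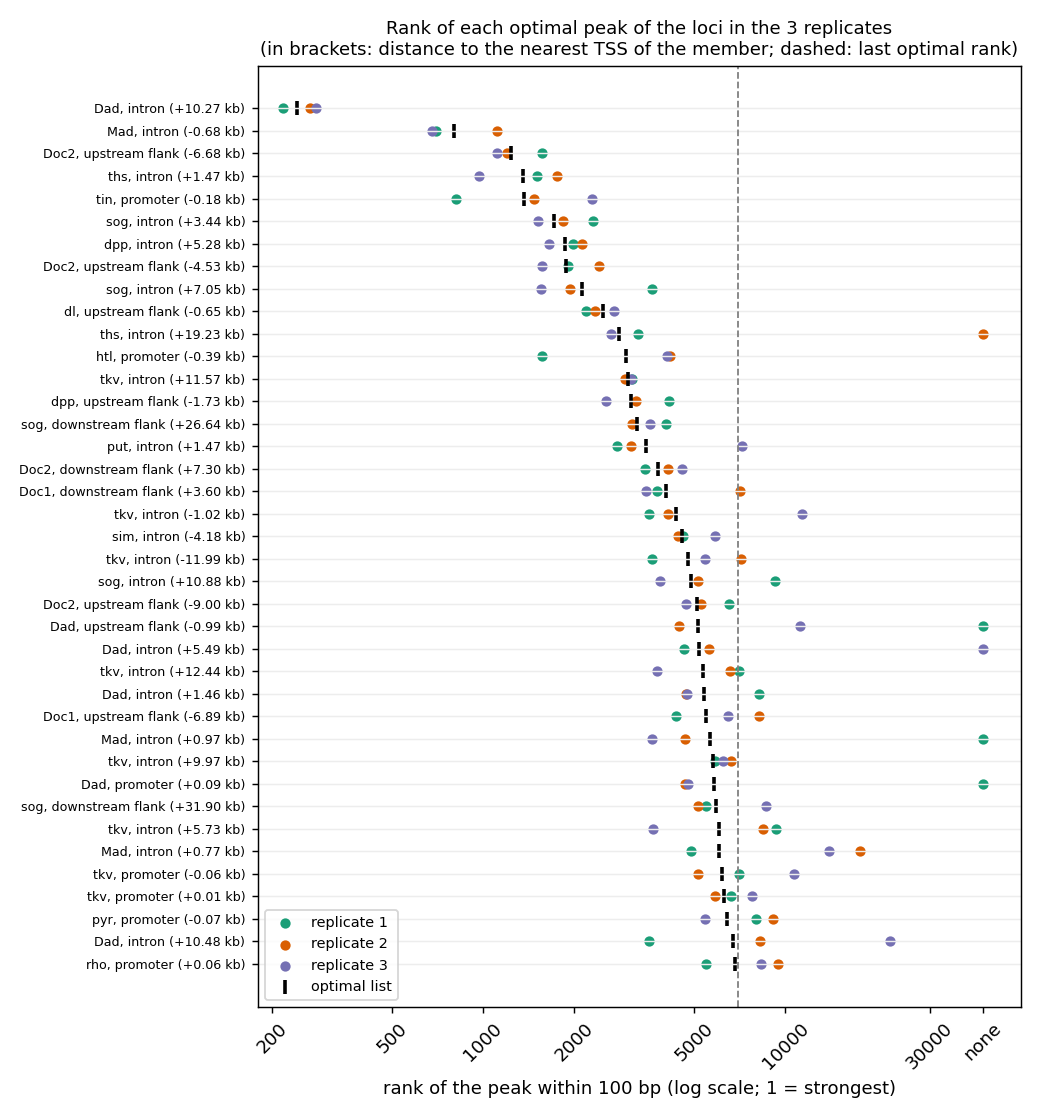
Rank in each replicate (dots, log axis) of the peak within 100 bp of each of the 39 optimal summits, ordered by rank in the optimal list (bars); "none" means that no such peak was listed, and the dashed line is rank 6970. The dots lie close together at the strongest Dad and tkv peaks and spread towards the bottom of the list, where the 5 promoter peaks of rho, pyr, tkv and Dad lie.

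Of the 39 peaks, 18 (46.2%) were among the strongest 6970 of all 3 replicates, 14 of 2 replicates and 7 of 1, against 63.5% of all optimal peaks in all 3. The overlapping peaks in Dad and in Mad are counted separately here, each by its own summit. Their median rank was 4555, against 3486 for the whole list. The distal peaks alone had a median rank of 4197, against 3897 for all distal optimal peaks, and 16 were found in all 3 replicates, or 50%, against 60.7%. The median distance of the 32 distal summits from the nearest TSS of the gene was 5610 bp, with 5 within 1 kb and 9 beyond 10 kb.

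Lower-ranked peaks were counted as well. A pooled peak of any rank, optimal peaks included, was present at 18 of 30 promoters (60%), near the 55.0% of all genes. In the loci one was present at 25 of 30 genes (83.3%), against 65.6%. Thus 12 genes had a pooled promoter peak that was not optimal. The share of all genes with only such a promoter peak is not given here. Against the threshold of 6970, the pooled promoter ranks of rho (6822), pyr (6434), tkv (6177) and Dad (5796) lay inside, and those of gbb (7176), sog (8703), sax (8963) and put (9230) were the first outside. The 12 genes with no pooled promoter peak were twi, sim, ind, zen, zen2, Doc1, Doc2, pnr, tld, tsg, scw and Mad. The 5 loci with no pooled peak were those of ind, tld, tsg, scw and gbb. The gbb locus begins 81 bp before its TSS, and the summit at rank 7176 lies beyond that edge.

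Summits in the 39 peaks were poor in G and C, as optimal peaks in general were. The mean GC content was 33.6% in 51 bp at the summit and 40.9% at 1000 bp on either side, against 35.4% and 43.2% for all optimal peaks. Of 14 words searched on both strands within 50 bp of the summit, most were present in few peaks. GGCGCC, which fits the preference of Brk and of Smads for GC-rich sites, lay in 3 of 39 peaks (7.69%), against 1.98% of all optimal peaks. These were the downstream peak of sog at rank 5908 and the Dad intron peaks at ranks 5397 and 6702. GAGAG, the word of the Trithorax-like protein, lay in 3 peaks (7.69%, against 9.40%), GGGNNNNCC, a loose form of a Dorsal site, in 3 (7.69%, against 4.07%), and the word GATAAG, bound by factors such as Pnr, in 2 (5.13%, against 5.88%), both near Doc genes. The E-box CATATG lay in 1 peak, at tin (2.56%, against 3.60%), the E-box CACATG in 1, at dl (2.56%, against 3.63%), and TATCGATA in 1, at tkv (2.56%, against 2.94%). The other words lay in 0 of 39 peaks. Their shares of all optimal peaks were 0.416% for the Zelda word CAGGTAG, 4.06% for the E-box CAGCTG, 2.83% for the Snail word CAGGTG, 1.56% for the Tinman word TCAAGTG, 0.201% for the T-box word AGGTGTGA, 1.09% for the core-promoter word GGTCACACT and 0.0143% for the Smad silencer element. CAGGTG can overlap AGGTGTGA, and TATCGATA can overlap GATAAG. At these shares 0 of 39 says little, and a match is a description of letters, not of a bound factor.

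Close neighbours limit several loci. The genes rho, ind, brk, scw and Med have no flank, because other protein-coding genes overlap both their ends, and 33 further optimal peaks lay within 10 kb of a member but beyond the edge of a neighbour and in no member's locus. Of these, 21 were at a promoter of another gene. Around brk, inside the overlapping gene CG1677, lay 4 distal peaks. The nearest, 805 bp upstream of the brk TSS, had rank 2278 and replicate ranks 2638, 2244 and 2107. Upstream of gbb, a peak of rank 188 lay 1162 bp from its TSS, at the promoter of eIF6, a ribosome biogenesis factor gene. Near Med, a peak of rank 52 lay 5118 bp downstream of its TSS, at the promoters of Mnat9 and CG1792. Upstream of zen, a peak of rank 1344 lay 5466 bp away at the promoter of bcd, the anterior determinant.

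Other genes of the same networks, in lists of 74 genes, were counted in the same way, without a test, and are to be read beside the 31.3% of all genes with an optimal promoter peak and 13.1% with a distal one. These lists were also chosen with earlier results of these data known. Of 12 genes of the Toll and dorsal group, 4 had an optimal promoter peak, and these 4 encode components inside the cell. The strongest were cact, the inhibitor of Dorsal (rank 202, with 190, 216 and 216 in the replicates), the kinase gene pll (rank 759) and the adaptor gene tub (rank 2179). Tl and Myd88, the receptor and an adaptor, had the most peaks in the locus (2 each). Of 17 other BMP pathway genes, 8 had an optimal promoter peak, led by dlp, a glypican gene (1641), shn, a zinc-finger cofactor of Mad (2511), and Fs, the follistatin gene (2945), and shn had 16 peaks in the locus, followed by dlp with 6. Of 15 dorsal and Dpp target genes, 4 had one, with net (3103), Ance (4923) and ush (5305) the strongest, and ush, cv-c and srp held 14, 9 and 3 peaks. Of 13 mesoderm genes, 5 had one, led by the integrin gene if (2200), Mef2 (2535) and T48 (3026), with 8 peaks in the Mef2 and 6 in the T48 locus. Of 17 ectoderm and midline genes, 5 had one, led by the Egfr ligand gene spi (136), neur (1872) and aos (2150), with 16 peaks in the locus of the ETS factor gene pnt, 7 in that of ed and 6 in that of spi. Distal optimal peaks were present at 3 of 12, 10 of 17, 9 of 15, 8 of 13 and 10 of 17 genes of these lists in the same order. Their median loci were 6874.5, 12441, 28720, 32022 and 19449 bp, against 3989 bp for all genes. The share of all genes with a distal peak was 20.3% at loci of 5 to 20 kb and 47.4% over 20 kb, so the 13.1% is not matched for length.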

How the data were processed

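Chromatin of 3 biological replicates (1 group) was sonicated to 200 to 800 bp before the GFP pull-down, per the labels. Descriptions deposited with the lists derive each list of 30000 ranked peaks from 1 replicate, or all 3 pooled, and a control alignment, and name the optimal list as thresholded by irreproducible discovery rate. Aligner and peak caller: not given in the sources used here. The signal per peak is the authors' deposited value. The deposited −log10 q-values share 1 highest value in 6088 of 6970 optimal peaks and were not used for ranking. The dm3 lists were not used.

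Summits were assigned to genes of Ensembl release 115 on dm6, and sequences were read from the RefSeq genome of the same assembly. Peak ends were checked against arm lengths. Replicate presence used the 6970 strongest peaks per replicate and summits within 100 bp. The assignment was tested on planted peaks. Members, classes, words and lists were chosen with earlier results of these data known. Of the other names, 4 matched no symbol. Named peaks are the strongest promoter peak of each bound member and up to 3 of its strongest others, and named genes up to 3 per list by promoter rank and by peak number. The weaker Dad and Mad peaks, the full Doc set and genes near loci without peaks were singled out later. The replicates have no second group to be compared with, so no test was run. Python 3.11.15, numpy 2.4.6, pandas 2.3.3 and matplotlib 3.10.9 were used.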

Additional observations from a re-analysis of the deposited data

How the results depend on the processing

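Counts were recomputed with promoter windows of 250 and 1000 bp, flanks of 5, 20 or 0 kb, flanks ending at any gene, the 3485 strongest optimal peaks and peak middles. They were also recomputed with each replicate set aside, where optimal peaks had to be among the strongest of both others. The 6 promoter genes became 2 with the 3485 strongest peaks, and the 39 locus peaks became 16. Setting 1 replicate aside gave 2 to 3 promoter genes and 22 to 23 locus peaks. The optimal list still rests on all 3 replicates, so this setting only removes peaks (4828 to 5124 are kept) and can only lower these counts. Genes with a promoter peak in every replicate, 2 here, were 1 with 250 bp, 6 with 1000 bp, 1 with the 3485 strongest peaks per replicate and 18 with whole lists. The 1000-bp window added brk, dl and Mad to the promoter genes, 9 in all. The 15 genes with a locus peak stayed within 10 to 15 under these settings. In alternatives chosen after seeing the data, a 10-kb flank whatever genes lie in it gave 22 genes and 72 peaks, while leaving out of the 10-kb loci as first defined the peaks at a promoter of another gene and of no member left 15 genes and 39 peaks. The tkv peak shared with CR14033 is kept by that setting. Shares of all protein-coding genes under the changed settings of this section are not given here. Whether the named genes moved differently from all genes therefore cannot be told from these counts. No paired analysis was possible because there is 1 group. Lists without reads give no depth, so weak peaks cannot be given an error.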
